A study of Mus musculus with 18 samples.

Results

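Interferon-stimulated genes are the genes that cells switch on when they sense interferon. A panel of 43 of them was taken by name from the 34896 genes of the expression table. The panel was followed from granulocyte-monocyte progenitors (GMP) through pre-neutrophils (preNeu) to mature neutrophils (matNeu), all sorted from the bone marrow of C57BL/6 mice aged 6 to 12 weeks. RNA-seq held 3 wild type libraries of each cell type, and each ChIP-seq or ATAC-seq condition was 1 library. CHD4, the ATPase of the NuRD chromatin remodelling complex, had been mapped in wild type GMPs and in GMPs that lack the transcriptional repressor GFI1 (Gfi1-/-). Dimethylation of lysine 4 of histone H3 (H3K4me2), a mark of promoters and enhancers, had been mapped in wild type GMP, preNeu and matNeu cells. The study set out to follow GFI1 and NuRD at chromatin while GMPs become neutrophils. The comparisons given here describe how the interferon-stimulated genes behaved in those data. GMPs had been gated as lineage-negative cKIT+ SCA- CD16/32+ CD34+ cells, and the marrow of several bones was pooled before the sort.

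Type I, II and III interferons bind receptors that activate the kinases JAK1, JAK2 and TYK2. These phosphorylate STAT proteins. Complexes that hold STAT2 and IRF9 bind a sequence that contains spaced GAAA repeats, while STAT dimers bind a palindrome of the form TTCNNNGAA. The genes switched on encode proteins that block virus entry (IFITM), bind viral RNA (IFIT), degrade RNA (OAS with RNase L), trap or modify viral and cellular proteins (BST2, ISG15) and attack pathogen vacuoles (IRG and GBP GTPases). In mice without infection, some neutrophils are known to carry high levels of such genes.

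RNA levels were in TPM (a transcript's share scaled to a fixed library total), and so a share of each library normalised for transcript length. Depth in reads was therefore unknown, and a rise in a few abundant genes lowers the share of the others. Of the 18 samples, 13 carried a cell type field that went against the sample title, including all 9 RNA-seq libraries, and groups were taken from the titles. Summed levels of 7 GMP markers were 46430 to 48340 TPM in the libraries titled GMP and at most 33.6 TPM in those titled matNeu. Summed levels of 7 matNeu markers were 33750 to 36720 TPM in the libraries titled matNeu and at most 1424 TPM in the others. The 10 most abundant genes held 9.15 to 9.78% of TPM in GMP, 24.1 to 28.3% in preNeu and 12.7 to 15.9% in matNeu. The labels did not say whether libraries came from separate animals, so p-values measured only the spread between these libraries. In bulk samples, fewer cells that use a gene and less RNA per cell cannot be told apart.

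RefSeq promoter windows, which run from 250 bases before to 50 bases after a transcription start on GRCm38.p6 (the mm10 assembly), were found for 33 of the 43 genes. None was found for Zbp1, Usp18, Rtp4, Parp14, Iigp1, Parp9, Mx2, Dhx58, Oas2 and Mx1. A pair of GAAA separated by 2 bases, on either strand, was found in 22 of the 38 windows of these genes (57.9%), against 3.44% of all 32851 windows. The shorter pattern AANNGAAA, which every such pair also holds, was found in 78.9% of the windows against 23.9% of all. The palindrome TTCNNNGAA was found in 34.2% against 8.30%. Interferon-stimulated genes are known for these letters, so their presence is a description of the panel and not a result of the experiment. The stretches below carry the pair in genes whose RNA took different courses, and are printed 5′ to 3′ on the strand of the gene with the pair in capitals. TTTC is GAAA read on the other strand.

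Ifit3, chr19:34583355-34583434, plus strand: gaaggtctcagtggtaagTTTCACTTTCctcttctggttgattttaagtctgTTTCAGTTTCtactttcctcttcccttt
Ifit1, chr19:34640767-34640831, plus strand: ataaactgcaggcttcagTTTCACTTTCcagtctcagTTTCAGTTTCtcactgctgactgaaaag
Isg15, chr4:156200857-156200914, minus strand: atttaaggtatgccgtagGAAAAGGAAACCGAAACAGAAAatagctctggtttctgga
Rsad2, chr12:26456545-26456590, minus strand: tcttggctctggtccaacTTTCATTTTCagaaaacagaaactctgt
Oas3, chr5:120777707-120777752, minus strand: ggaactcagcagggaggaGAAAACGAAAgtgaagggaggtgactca
Bst2, chr8:71537569-71537620, minus strand: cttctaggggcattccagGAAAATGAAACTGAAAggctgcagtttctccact
Gbp3, chr3:142559981-142560025, plus strand: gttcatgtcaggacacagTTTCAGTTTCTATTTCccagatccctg
Gbp7, chr3:142530265-142530310, plus strand: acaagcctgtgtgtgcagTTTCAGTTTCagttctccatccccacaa

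Pairs of neighbouring genes shared their stretch. The 36 bases before the start of Oas1g were identical in Oas1a, and the stretch of Igtp differed from that of Irgm2 at 2 of 46 bases.

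Oas1g, chr5:120887614-120887649, minus strand: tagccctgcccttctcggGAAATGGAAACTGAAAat
Oas1a, chr5:120907526-120907563, minus strand: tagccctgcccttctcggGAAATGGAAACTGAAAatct
Igtp, chr11:58199504-58199549, plus strand: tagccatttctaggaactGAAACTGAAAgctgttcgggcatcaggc
Irgm2, chr11:58214895-58214940, plus strand: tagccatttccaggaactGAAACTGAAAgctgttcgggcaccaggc

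Most interferon-stimulated genes were higher in matNeu than in GMPs and preNeu. From GMP to matNeu 27 of the 41 tested rose by over 1 on the log2 scale, against 18.6% of all tested genes. A rise by over 3 was seen for 17, against 5.12% of all. The summed level of the members was 1278 to 1372 TPM in GMP, 1546 to 1651 TPM in preNeu and 8935 to 9582 TPM in matNeu, with no overlap between cell types. In preNeu a single gene, Ifitm6, gave 735 to 873 TPM of that sum. Samhd1 led in matNeu with 1691 to 1910 TPM. At least 100 TPM was reached by 3 members in each GMP library, by 2 or 3 in each preNeu library and by 19 or 20 in each matNeu library. The mean level was highest in matNeu for 34 members, in GMP for 7 and in preNeu for 2, and was lowest in preNeu for 29. Such counts are not given over all genes here, of which 44.3% of those tested were called lower in preNeu than in GMP. The low preNeu means are therefore not shown to be particular to the panel.

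**Figure D1:**
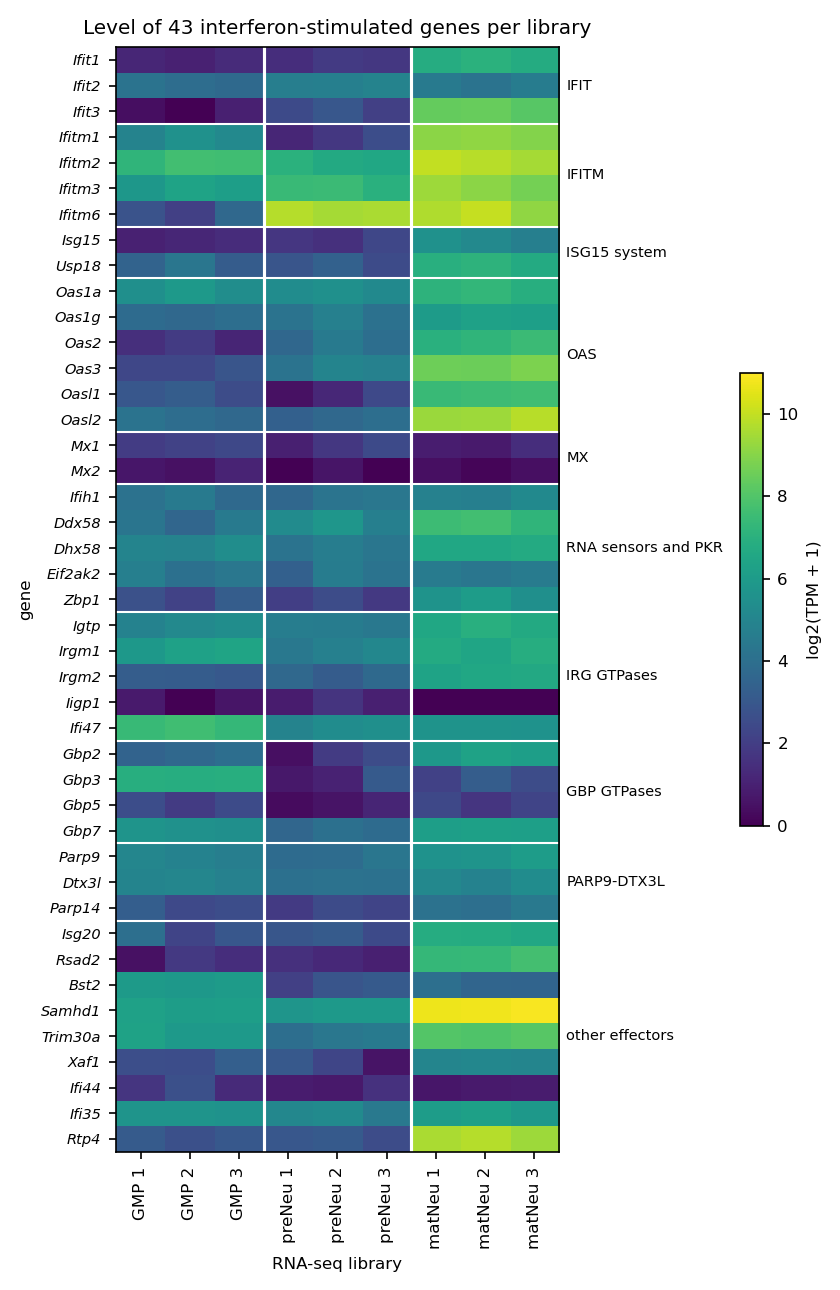
RNA level of each interferon-stimulated gene (rows, grouped by role) in each library (columns), shown by colour as log2(TPM + 1). The mean over the matNeu columns is the highest for 34 of the 43 genes, whereas Gbp3, Bst2 and Ifi47 are brightest in GMP.

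Each gene was tested with limma on log2(TPM + 1), and called where the Benjamini-Hochberg adjusted p over 13061 tested genes was below 0.05. Genes needed at least 1 TPM in 3 libraries, which 41 of the 43 members reached. Mx2 (0 to 1.12 TPM) and Iigp1 (0 to 2.11 TPM, listed at 0 in all matNeu libraries) were not tested. Log2 changes are on the log2(TPM + 1) scale, which understates the change of low genes. Between GMP and matNeu, 31 members were called higher, against 22.8% of all tested genes, and 5 were called lower, against 54.1% of all. Between preNeu and matNeu, 34 were called higher, against 22.9% of all. By limma 0 members were called lower in that step, against 39.8% of all, and 0 were lower at an unadjusted p under 0.05. Between GMP and preNeu, 8 members were called higher, against 14.7% of all, and 17 lower, against 44.3% of all, so shares in the first step were near the background. The 8 were Ifit2, Ifit3, Ifitm3, Ifitm6, Oas1g, Oas2, Oas3 and Ddx58. The call of Oas1g (0.52 ± 0.20, limma adjusted p = 0.0452) was lost when any single GMP or matNeu library or preNeu replicate 2 was left out. It was also lost with no filter on low TPM, with no variance trend, with a replicate block and with the 2 cell types fitted alone. When libraries were rescaled (median-of-ratios or quantile), the falls of Ifi35, Dhx58, Parp9, Samhd1, Dtx3l, Ifitm2 and Igtp in preNeu were not called, and 10 or 9 members were called lower.

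The median log2 change of the 41 tested members was -0.55 from GMP to preNeu, where the median of all tested genes was -0.52. It was 2.26 from GMP to matNeu, where all genes had -0.92, and 2.21 from preNeu to matNeu, where all genes had -0.32. A log2 rise over 3 from GMP to matNeu was seen for 17 members, against 5.12% of all tested genes. From preNeu to matNeu it was seen for 18, against 3.36% of all. The comparisons share libraries, so their values are given side by side.

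**Figure D2:**
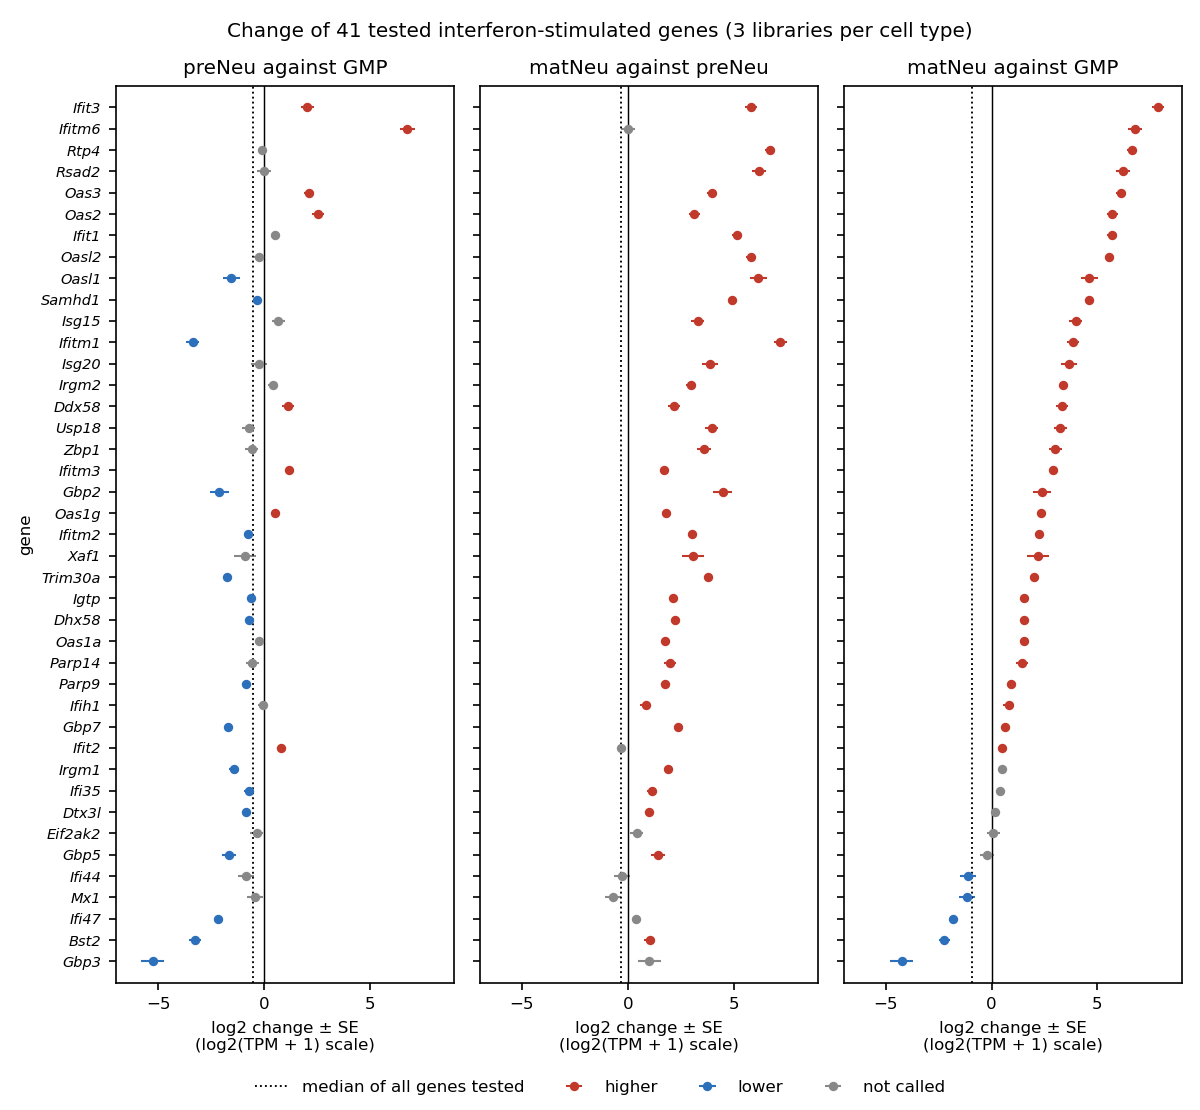
Log2 change (± SE, limma, 3 libraries of each cell type) of the 41 tested members in the 3 comparisons, on the log2(TPM + 1) scale, with the median of all tested genes as a dotted line. Red marks members called higher, blue lower and grey not called, and in matNeu against GMP 31 are red and Gbp3, Bst2, Ifi47, Mx1 and Ifi44 are blue.

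The IFIT proteins bind viral RNA, such as RNA without the methyl marks of host caps. All 3 members were called higher in matNeu than in GMP, but by very different amounts. Ifit3 was at 0.335, 0 and 0.966 TPM in the GMP libraries, at 4.51, 6.84 and 3.28 TPM in preNeu and at 336, 352 and 281 TPM in matNeu. The cell types did not overlap, and the log2 change from GMP to matNeu was 7.87 ± 0.30 (SE, limma adjusted p = 2.34e-09), the largest rise of the panel. Ifit1 rose in the second step, from 1.27 ± 0.298 TPM in GMP (SD, n = 3) over 2.29 ± 0.489 in preNeu to 116 ± 10.9 in matNeu, and its change in the first step was not called (0.53 ± 0.22, limma adjusted p = 0.0635). Ifit2 took another course. It was at 17.4, 14.1 and 12.5 TPM in GMP, at 24.9, 25.6 and 29.3 TPM in preNeu and at 22.4, 17.2 and 23.7 TPM in matNeu. Its preNeu libraries were the highest, and its GMP and matNeu libraries overlapped by a narrow margin. Its rise from GMP to matNeu, 0.50 ± 0.20 (SE, limma adjusted p = 0.0387), lost its call in 5 of the 9 fits that leave out a single library: without GMP replicate 2 or 3, preNeu replicate 2, or matNeu replicate 1 or 3. The call was also lost with no filter on low TPM, with the 2 cell types fitted alone and with a replicate block. The 3 genes lie within 99.3 kb of each other on chromosome 19.

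The IFITM proteins sit in membranes and hinder the entry of enveloped viruses. All 4 members, which lie in 63.1 kb of chromosome 7, were called higher in matNeu than in GMP. Ifitm6 was at 6.04, 3.19 and 12.1 TPM in GMP, at 873, 735 and 772 TPM in preNeu and at 828, 1041 and 582 TPM in matNeu. It had thus reached its full level in preNeu, with a log2 change from GMP of 6.77 ± 0.35 (SE, limma adjusted p = 1.59e-07) and of 0.01 ± 0.35 from preNeu to matNeu (adjusted p = 0.995). Ifitm1, its neighbour, was at 29.4, 45.8 and 35.7 TPM in GMP, at 1.30, 2.41 and 5.04 TPM in preNeu and at 547, 576 and 491 TPM in matNeu. It fell first, by 3.37 ± 0.30, and then rose by 7.22 ± 0.30 on the log2 scale (SE, limma adjusted p = 7.33e-06 and 1.15e-08). Ifitm2 was at 147, 205 and 198 TPM in GMP, at 127, 100.7 and 93.8 TPM in preNeu and at 1026, 889 and 727 TPM in matNeu. Its matNeu libraries stood far above the others, and its fall in preNeu (-0.77 ± 0.18) was not called when libraries were rescaled. Ifitm3 rose at both steps, from 69.7 ± 14.2 over 160 ± 29.0 to 536 ± 127 TPM. Reads of near-identical IFITM genes can be assigned to either copy, so the split between members is uncertain. The same holds for Oas1a with Oas1g, for Ifit3 and for the GBP genes.

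The OAS enzymes make 2′-5′ linked oligoadenylates that activate RNase L, while the related OASL proteins carry ubiquitin-like domains. All 6 members were called higher in matNeu than in both earlier cell types. Oas2 was at 1.80, 2.80 and 1.18 TPM in GMP, at 11.9, 22.3 and 14.9 TPM in preNeu and at 126, 146 and 179 TPM in matNeu. It rose at both steps without overlap, as did Oas3, which went from 4.86 ± 1.31 over 25.02 ± 7.10 to 398 ± 46.0 TPM (SD, n = 3). The log2 changes from GMP to preNeu were 2.13 ± 0.24 for Oas3 and 2.56 ± 0.28 for Oas2 (SE, limma adjusted p = 2.76e-05 and 2.43e-05). Oasl2 ranged from 12.1 to 17.5 TPM in GMP, from 9.37 to 14.9 TPM in preNeu and from 649 to 911 TPM in matNeu. Its GMP and preNeu libraries overlapped, and the whole rise lay in the second step. Oasl1 fell from GMP to preNeu by 1.55 ± 0.40, a call lost with quantile normalization, before it rose to 186 ± 12.5 TPM in matNeu. From GMP to matNeu Oas1g rose by 2.35 ± 0.20, and the smallest rise of the group was that of Oas1a, 1.51 ± 0.18.

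The ISG15 system attaches the ubiquitin-like protein ISG15 to other proteins, and USP18 removes it and restrains the type I receptor. Isg15 ranged from 0.999 to 1.64 TPM in GMP, from 1.85 to 4.12 TPM in preNeu and from 26.2 to 46.8 TPM in matNeu. Its matNeu level was moderate within the panel, with a log2 change from GMP of 3.98 ± 0.31 (SE, limma adjusted p = 4.60e-07). Usp18 was at 10.2, 18.9 and 8.17 TPM in GMP, at 6.40, 9.61 and 4.77 TPM in preNeu and at 122, 135 and 104 TPM in matNeu. GMP and preNeu overlapped, and the rise from GMP to matNeu was 3.25 ± 0.31 (limma adjusted p = 2.55e-06).

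Among the sensors of viral nucleic acid, RIG-I (Ddx58), LGP2 (Dhx58), MDA5 (Ifih1) and Zbp1 were called higher in matNeu than in GMP. Ddx58 rose at both steps, from 17.2 ± 5.33 TPM in GMP over 39.6 ± 13.9 in preNeu to 177 ± 29.4 in matNeu (SD, n = 3). Zbp1 rose from 5.90 ± 2.51 in GMP to 53.0 ± 11.3 TPM in matNeu, Dhx58 from 33.4 ± 6.39 to 96.3 ± 6.10 TPM, and Ifih1 from 16.9 ± 4.39 to 29.8 ± 5.27 TPM. The call of Ifih1 was lost without GMP replicate 3, without matNeu replicate 3 and with no filter on low TPM. Eif2ak2, which encodes the RNA-activated kinase PKR, was at 20.5 ± 5.24 TPM in GMP and 21.5 ± 2.32 TPM in matNeu, a log2 change of 0.09 ± 0.31 that was not called. When libraries were rescaled, Eif2ak2 was called higher in matNeu (0.93 and 1.30).

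Several single effectors also rose widely. Rtp4, a chaperone-like protein that also restrains interferon responses, was at 8.02, 5.35 and 7.28 TPM in GMP, at 6.99, 7.70 and 4.88 TPM in preNeu and at 783, 881 and 665 TPM in matNeu. Rsad2, the radical SAM enzyme viperin, was at 0.423, 2.52 and 1.73 TPM in GMP, at 1.89, 1.41 and 0.959 TPM in preNeu and at 161, 162 and 207 TPM in matNeu. For both genes GMP and preNeu overlapped and matNeu stood apart, with log2 changes from GMP of 6.63 ± 0.21 and 6.21 ± 0.33 (SE, limma adjusted p = 7.15e-10 and 2.63e-08). Samhd1, a dNTP hydrolase that limits reverse transcription, was at 78.5, 68.9 and 70.2 TPM in GMP, at 52.1, 58.8 and 61.2 TPM in preNeu and at 1691, 1737 and 1910 TPM in matNeu. Its rise from preNeu to matNeu was 4.93 ± 0.11 (SE, limma adjusted p = 3.74e-10). Its small fall from GMP to preNeu, by 0.33 ± 0.11 (adjusted p = 0.0257), lost its call without GMP replicate 1 and without preNeu replicate 1, and turned to 0.17 and 0.15 when libraries were rescaled. Trim30a, of the tripartite motif family, was at 79.9, 58.4 and 58.9 TPM in GMP, at 14.6, 19.3 and 22.04 TPM in preNeu and at 263, 251 and 283 TPM in matNeu. It fell by 1.77 ± 0.18 and then rose by 3.78 ± 0.18 (SE), with no overlap. Isg20, an RNA exonuclease, and Xaf1 rose to 105 ± 7.53 and 32.0 ± 0.980 TPM in matNeu.

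The GBP GTPases coat bacteria and pathogen vacuoles. All 4 members were called lower in preNeu than in GMP, and they parted in matNeu. Gbp3 was at 119, 113 and 120 TPM in GMP, at 0.613, 1.06 and 7.79 TPM in preNeu and at 3.35, 8.55 and 4.83 TPM in matNeu. It did not recover, with a log2 change from GMP to matNeu of -4.25 ± 0.55 (SE, limma adjusted p = 2.98e-05), the largest fall of the panel. Gbp7, a neighbour in the same cluster of 144.0 kb on chromosome 3, was at 51.4, 46.1 and 43.5 TPM in GMP, at 11.5, 15.9 and 13.6 TPM in preNeu and at 70.8, 74.8 and 73.6 TPM in matNeu. Gbp7 was lowest in preNeu and slightly higher in matNeu than in GMP (0.63 ± 0.16). Gbp2 was at 10.2, 12.3 and 14.8 TPM in GMP, at 0.348, 2.71 and 4.94 TPM in preNeu and at 57.3, 80.6 and 69.9 TPM in matNeu, and so recovered past its GMP level. Gbp5 was low throughout, with 5.11, 2.74 and 4.70 TPM in GMP, 0.260, 0.494 and 1.23 TPM in preNeu and 4.18, 2.26 and 3.81 TPM in matNeu. Its GMP and matNeu libraries overlapped.

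The IRG GTPases act on vacuoles much as the GBPs do. Of the 4 tested, Igtp, Irgm1 and Ifi47 were called lower in preNeu than in GMP, though Igtp was not when libraries were rescaled. Ifi47 was at 169, 195 and 162 TPM in GMP, at 29.4, 40.3 and 43.9 TPM in preNeu and at 49.3, 49.6 and 48.4 TPM in matNeu. It stayed below GMP, by 1.81 ± 0.16 on the log2 scale (SE, limma adjusted p = 1.53e-06). Irgm2 rose from 7.94 ± 0.718 to 91.4 ± 8.96 TPM and Igtp from 35.2 ± 6.33 to 105 ± 15.1 TPM from GMP to matNeu (SD, n = 3). Irgm1 was at 57.0, 78.0 and 83.9 TPM in GMP, at 20.1, 26.6 and 33.0 TPM in preNeu and at 104, 88.3 and 113 TPM in matNeu. Its matNeu libraries all lay above GMP, but the change of 0.49 ± 0.21 was not called (limma adjusted p = 0.0525) and was called in 4 of the fits without 1 library (GMP replicate 3, preNeu replicate 1, preNeu replicate 3 or matNeu replicate 2). It was also called with either rescaling (1.36 and 1.07).

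Bst2 (tetherin), which holds budding virus at the cell surface, was at 62.1, 57.9 and 63.9 TPM in GMP, at 3.19, 6.48 and 7.70 TPM in preNeu and at 15.4, 11.01 and 10.8 TPM in matNeu. It was lower in matNeu than in GMP by 2.23 ± 0.27 (SE, limma adjusted p = 2.08e-05), although it rose by 1.03 ± 0.27 from preNeu. Mx1, a GTPase against influenza viruses that is disrupted in many laboratory strains, was at 2.92, 3.56 and 4.30 TPM in GMP, at 0.972, 2.48 and 4.48 TPM in preNeu and at 0.822, 0.723 and 1.71 TPM in matNeu. The log2 change from GMP to matNeu, -1.16 ± 0.38 (SE, limma adjusted p = 0.0156), lost its call without GMP replicate 3 and without matNeu replicate 2. Ifi44 fell by 1.13 ± 0.38 from a mean of 3.09 TPM, and lost its call without GMP replicate 2. Neither was called when libraries were rescaled, whereas Gbp3, Bst2 and Ifi47 kept theirs. Of the PARP9-DTX3L group, which ADP-ribosylates and ubiquitinates proteins, Parp9 and Parp14 were called higher in matNeu than in GMP, and Dtx3l was not. Dtx3l was at 29.8, 32.0 and 27.8 TPM in GMP, at 15.6, 16.7 and 16.3 TPM in preNeu and at 33.8, 28.5 and 40.3 TPM in matNeu, so that GMP and matNeu overlapped (0.18 ± 0.17). Ifi35, at 49.4 ± 1.98 TPM in GMP and 66.0 ± 9.46 TPM in matNeu (SD, n = 3), was not called either (0.40 ± 0.21). With either rescaling Dtx3l (1.03 and 1.23) and Ifi35 (1.27 and 1.19) were called higher.

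Marker levels of other cell types also differed between the cell types. Mature and pre-neutrophils had been gated as MAC-1+ GR1+ single cells, the former also as CXCR2+. Summed levels of 4 plasmacytoid dendritic cell markers, cells that make much interferon, were 0.388 to 0.983 TPM in GMP, 1.44 to 2.29 TPM in preNeu and 8.72 to 15.4 TPM in matNeu. Siglech alone gave 6.60 to 11.6 TPM of the matNeu sum, and Cox6a2 was at 0 in matNeu replicates 2 and 3. Those of 3 T cell markers were 2.44 to 3.43, 0.769 to 3.04 and 7.50 to 14.3 TPM, with Cd3d alone at 6.57 to 14.1 TPM in matNeu. Those of 3 NK cell markers were 0 to 0.387, 0 to 0.415 and 1.10 to 6.37 TPM. Those of 3 B cell markers were 78.9 to 94.5, 25.1 to 38.2 and 51.9 to 103 TPM, but the members went opposite ways. Cd79b was at 77.9 to 93.7 TPM in GMP and 25.1 to 53.9 TPM in matNeu, while Cd79a went from at most 0.603 to between 16.2 and 33.1 TPM and Ms4a1 from at most 0.523 to between 8.33 and 16.0 TPM. Klk1, Cd3e, Ncr1 and Gzma were at 0 in all GMP libraries, Ncr1 and Klrb1c in all preNeu libraries, and none of these markers in all matNeu libraries. Summed levels of 5 monocyte markers went down, from 3818 to 4597 TPM in GMP over 1653 to 2203 TPM in preNeu to 685 to 1165 TPM in matNeu. Ly6c2 alone gave 676 to 1161 TPM of the matNeu sum. The matNeu means of Ccr2, Cx3cr1, F13a1 and Ms4a6c were 0.573, 0.853, 3.06 and 1.71 TPM. The sums of 5 macrophage markers were 37.5 to 43.01, 239 to 351 and 98.5 to 140 TPM, and these members also parted. Adgre1 rose from a mean of 11.4 TPM in preNeu to 75.7 to 97.0 TPM in matNeu. The means of C1qa, C1qb, C1qc and Vcam1 fell from 24.9 to 6.68, 37.5 to 6.83, 30.0 to 5.72 and 186 to 9.81 TPM. Summed levels of 3 eosinophil markers went from 839 to 1104 TPM in GMP over 18.5 to 21.0 TPM in preNeu to 0.405 to 0.623 TPM in matNeu. The part of these cells in the changes was not tested.

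The genes that make, receive and limit the interferon signal were described from fixed lists of 53 gene symbols. None of 19 interferon genes in the table reached the level for testing, 15 were listed at 0 in all 9 libraries, and the highest value was 1.61 TPM, of Ifng in a single matNeu library. Of 6 receptor chains, 4 were called higher and 1 lower in matNeu than in GMP, against 22.8% and 54.1% of all tested genes. Ifnlr1, the specific chain of the type III receptor, was at 0.0762, 0.0375 and 0.0421 TPM in GMP, at 34.6, 32.3 and 37.3 TPM in preNeu and at 39.4, 47.1 and 48.8 TPM in matNeu. It was under 0.1 TPM in GMP and high from preNeu on, with a log2 change from GMP to preNeu of 5.08 ± 0.19 (SE, limma adjusted p = 1.47e-08). Ifnar1 of the type I receptor was at 63.6, 67.9 and 49.1 TPM in GMP, at 23.4, 26.9 and 24.7 TPM in preNeu and at 123, 114.5 and 128 TPM in matNeu. Its partner Ifnar2 was at 181, 133 and 155 TPM in GMP, at 90.4, 84.4 and 79.3 TPM in preNeu and at 171, 175 and 148 TPM in matNeu. Both chains were lowest in preNeu, though with median-of-ratios scaling the fall of Ifnar2 to preNeu was not called. In matNeu Ifnar1 was above GMP by 1.02 ± 0.15, while the change of Ifnar2 (0.08 ± 0.14) was not called but was 0.96 and called with median-of-ratios scaling. Of the type II receptor, Ifngr1 was at 684, 710 and 657 TPM in GMP, at 272, 282 and 363 TPM in preNeu and at 293, 319 and 304 TPM in matNeu. Ifngr2 was at 74.5, 60.0 and 83.1 TPM in GMP, at 67.1, 67.6 and 73.5 TPM in preNeu and at 280, 262 and 343 TPM in matNeu. From GMP to matNeu the first chain fell by 1.16 ± 0.12 and the second rose by 2.01 ± 0.15 (SE, limma).

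Of 11 kinases and transcription factors, 8 were called higher and 2 lower in matNeu than in GMP, against 22.8% and 54.1% of all tested genes. Irf7, the factor that amplifies interferon responses, was at 8.24, 6.82 and 8.73 TPM in GMP, at 17.4, 34.2 and 25.7 TPM in preNeu and at 445, 429 and 478 TPM in matNeu, a log2 change of 5.67 ± 0.22 from GMP (SE, limma adjusted p = 2.54e-09). Stat2 and Irf9 encode parts of the complex that binds the GAAA pair. Stat2 was at 27.3, 26.9 and 22.3 TPM in GMP, at 23.1, 28.4 and 22.2 TPM in preNeu and at 55.8, 65.1 and 49.2 TPM in matNeu. Irf9 was at 56.7, 47.4 and 57.6 TPM in GMP, at 33.7, 47.1 and 48.5 TPM in preNeu and at 213, 242 and 226 TPM in matNeu. For both, GMP and preNeu did not differ by the test and matNeu stood above them. Irf1, which responds to interferon gamma, was at 66.2, 84.3 and 87.8 TPM in GMP, at 66.1, 67.7 and 64.5 TPM in preNeu and at 289, 290 and 378 TPM in matNeu. The log2 changes from GMP to matNeu were 1.12 ± 0.17, 2.06 ± 0.16 and 1.99 ± 0.15 for Stat2, Irf9 and Irf1 (SE, all called by limma). Irf8, which directs monocyte and dendritic cell fate, was at 548, 509 and 483 TPM in GMP, at 10.8, 12.7 and 13.9 TPM in preNeu and at 6.93, 7.60 and 19.2 TPM in matNeu. It fell by 5.53 ± 0.30 from GMP to matNeu. The other called fall, of Tyk2 by 1.10 ± 0.16, was lost with either rescaling.

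The next list holds sensors and adaptors that switch on interferon genes. Of 10 listed symbols 8 were in the table, since Mb21d1 and Tmem173 were each listed under an older and a newer symbol. Of these, 6 were tested and 5 were called lower in matNeu than in GMP, against 54.1% of all tested genes. Tmem173 (STING) was at 136, 128 and 128 TPM in GMP, at 5.57, 5.88 and 6.73 TPM in preNeu and at 4.14, 3.11 and 5.80 TPM in matNeu, a fall by 4.65 ± 0.21 from GMP (SE, limma adjusted p = 8.90e-09). Ikbke, a kinase that activates IRF3 and IRF7, was at 74.4 ± 12.4 TPM in GMP (SD, n = 3), 53.7 to 91.2 TPM in preNeu and 0.952 to 3.68 TPM in matNeu, so that its fall lay in the second step. Mavs and Mb21d1 (cGAS) fell by 3.51 ± 0.42 and 3.39 ± 0.42. The log2 change of Tbk1, -0.44 ± 0.16 (limma adjusted p = 0.0306), was smaller than that of the median gene and turned to 0.44 and 0.26 when libraries were rescaled. It also lost its call without GMP replicate 2 or 3 and without matNeu replicate 1 or 2. Tlr7, an endosomal RNA sensor and the only one called higher, was at 1.01, 1.96 and 1.17 TPM in GMP, at 5.55, 5.15 and 11.7 TPM in preNeu and at 8.53, 13.6 and 11.17 TPM in matNeu. It rose by 2.35 ± 0.33 from GMP to matNeu (SE, limma adjusted p = 6.58e-05).

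Of 7 inhibitors, 6 were called higher in matNeu than in GMP, against 22.8% of all tested genes. Socs3, which blocks JAK kinases at cytokine receptors, was at 0.108, 0.0527 and 0.430 TPM in GMP, at 0.545, 0.454 and 0.226 TPM in preNeu and at 200, 184 and 298.5 TPM in matNeu. GMP and preNeu overlapped and the log2 change from GMP to matNeu was 7.56 ± 0.27 (SE, limma adjusted p = 1.49e-09). Ptpn2, a phosphatase of JAK and STAT proteins, was at 106, 96.3 and 83.2 TPM in GMP, at 90.5, 95.5 and 94.7 TPM in preNeu and at 50.7, 47.1 and 53.2 TPM in matNeu. It fell by 0.90 ± 0.13, close to the median of all genes, and was not called when libraries were rescaled.

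**Figure D3:**
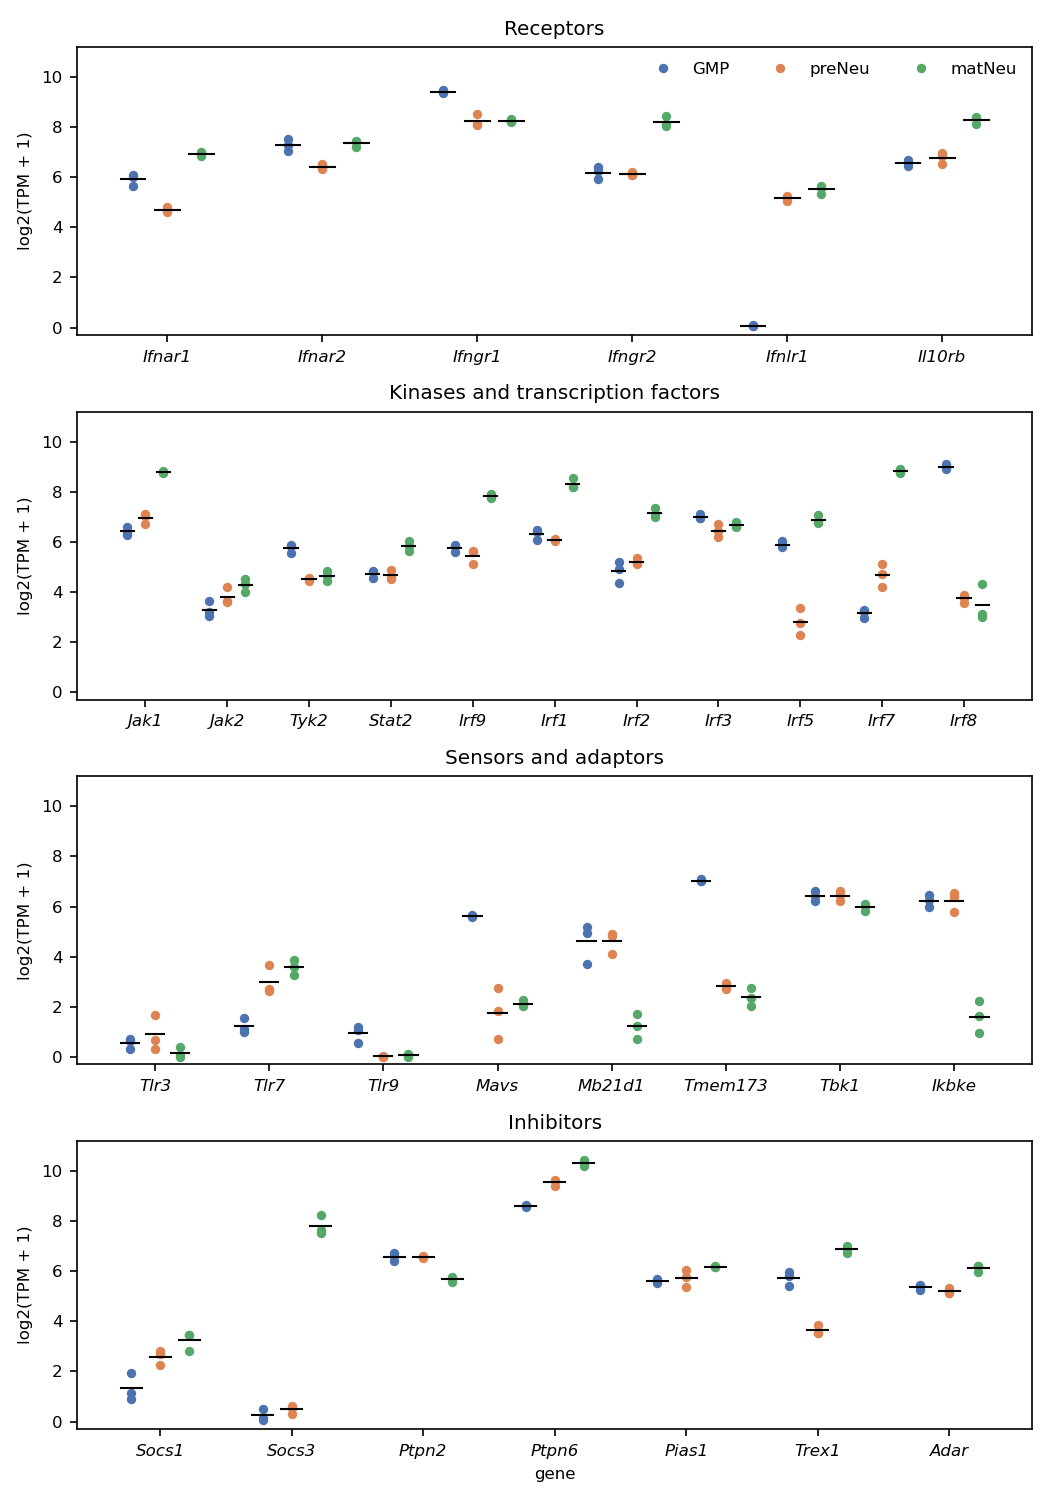
Level in each library (points, log2(TPM + 1)) and mean (lines) of the receptors, kinases and transcription factors, sensors and inhibitors of the interferon pathway. In matNeu Irf7, Socs3 and Ifnlr1 lie far above their GMP level, and Irf8, Tmem173, Mavs and Ikbke far below it.

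CHD4 sat at the promoters of a minority of the panel, most of them GBP or IRG genes. A promoter was counted as occupied where a peak summit lay from 2000 bp before to 500 bp after the start of a protein-coding gene, and 42 members had such a promoter. In wild type GMPs 11 were occupied (26.2%), against 8.08% of all 21938 promoters and 12.2% of those of tested genes. These were all 4 GBP genes, Ifi47, Irgm1, Ifit2, Mx1, Usp18, Dtx3l and Trim30a. By this definition no promoter of the IFITM or OAS genes, of Isg15, Rsad2, Rtp4 or Samhd1 had a summit. A summit of fold 5.48 lay in the RefSeq window of Ifitm6, 993 bp inside the GENCODE gene, and was not counted. Rtp4 had no RefSeq window, and its GENCODE start lies far upstream of its other starts. More members were occupied when every annotated transcript start was used. With 1 library for each genotype these peaks had no replicate check.

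The promoter peaks differed widely in fold enrichment, the height of the peak over local background. That of Ifi47 (chr11:49076137-49076868, mm10) had a fold of 29.0 with its summit 87 bp before the start. That of Gbp7 (chr3:142529702-142530604) had 25.8, with its summit 169 bp before the start and 114 bp from the GAAA pair printed above. Mx1 had 16.4 (summit 61 bp before the start), and Ifit2 (45 bp), Irgm1 (755 bp) and Gbp3 (291 bp) had 9.53, 9.31 and 9.28. Gbp5 had a pair of peaks at 9.93 and 8.07. Gbp2, Trim30a and Usp18 had peaks of 5.29 to 8.36, and the higher of the peaks at Dtx3l had 8.07. A stronger peak at Gbp5, with a fold of 16.8, lay at its RefSeq start, 2776 bp inside the GENCODE gene, and was not counted as a promoter peak. Its summit was 19 bp from a GAAA pair, which is shown for its closeness to a summit. Of 967 RefSeq windows with a wild type CHD4 summit, 7.55% held the pair. Of the 9 such windows of members 5 did, near the 57.9% of all 38 member windows.

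Gbp5, chr3:142496751-142496796, plus strand: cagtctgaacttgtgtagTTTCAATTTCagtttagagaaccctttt

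In GMPs without GFI1 the list held 7316 CHD4 peaks, against 35790 in wild type. Its median fold was 6.38 and its highest 66.9, against 7.715 and 100.5 in wild type. With 1 library each, a weaker library and the loss of GFI1 cannot be told apart. The study reported fewer wild type peaks. It found that most sites shared by GFI1 and CHD4 lost CHD4 without GFI1, while sites with CHD4 alone were largely unaffected. Its ChIP-qPCR at chosen loci, with 1 sample of each genotype, also showed loss of CHD4. It reported no change of Chd4 RNA or of the protein in these cells. In the Gfi1-/- list 3 member promoters were occupied (7.14%), against 1.57% of all promoters. These were Gbp7 (fold 9.71), Ifi47 (5.63) and Trim30a (4.99), all of which were among the 11 occupied in wild type. No peak of the Gfi1-/- list was found at the Mx1 promoter. A wild type site was counted as kept where a Gfi1-/- peak overlapped it by at least 1 bp. Within 10 kb of the members lay 67 wild type sites, of which 6 were kept (8.96%), against 18.5% of all sites. The share kept varied with fold enrichment: when all sites were ranked by fold and cut into 10 bins of equal size, 92.9% of the top bin were kept, 49.9% of the next and 4.19% of bin 6. Member sites were kept in 3 of 3, 1 of 5 and 2 of 9 cases in these bins, and in 0 of 50 in the other 7. The 3 kept sites of the top bin were the promoter peaks of Ifi47 and Gbp7 and a peak of fold 24.5 downstream of Trim30a. The RNA of Gfi1-/- cells was not analysed here, so the loss of Gfi1 was not checked in these cells. For a wild type site that was not kept, the Gfi1-/- list holds no fold, so its CHD4 signal there is unknown.

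The 11 members with a CHD4 summit in GMP and the others took different courses in RNA, and they also differed in GMP level. From GMP to matNeu, 5 of the 11 were called higher, 3 lower (Gbp3, Ifi47 and Mx1) and 3 were not called, with a median log2 change of 0.49. Of the 30 tested members without a summit, 26 were called higher and 2 lower, with a median of 3.17. Ifitm6 was among these 30, although a summit lay in its RefSeq window. From GMP to preNeu, 8 of the 11 were called lower, with a median of -1.65, and 9 of the 30, with a median of -0.24. Among all tested genes the order was the other way round in both comparisons. From GMP to matNeu 38.1% of the 1445 with a summit were called higher and 42.7% lower, against 20.4% and 59.3% of the 10420 without. From GMP to preNeu 39.3% of those with a summit were called lower, against 47.8% of those without. The median of the mean GMP levels was 29.9 TPM for the 11 and 8.66 TPM for the other 31. The part of the GMP level, of neighbouring genes in 1 cluster and of the GBP and IRG families in this split was not tested, and no test of the split itself was made.

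**Figure D4:**
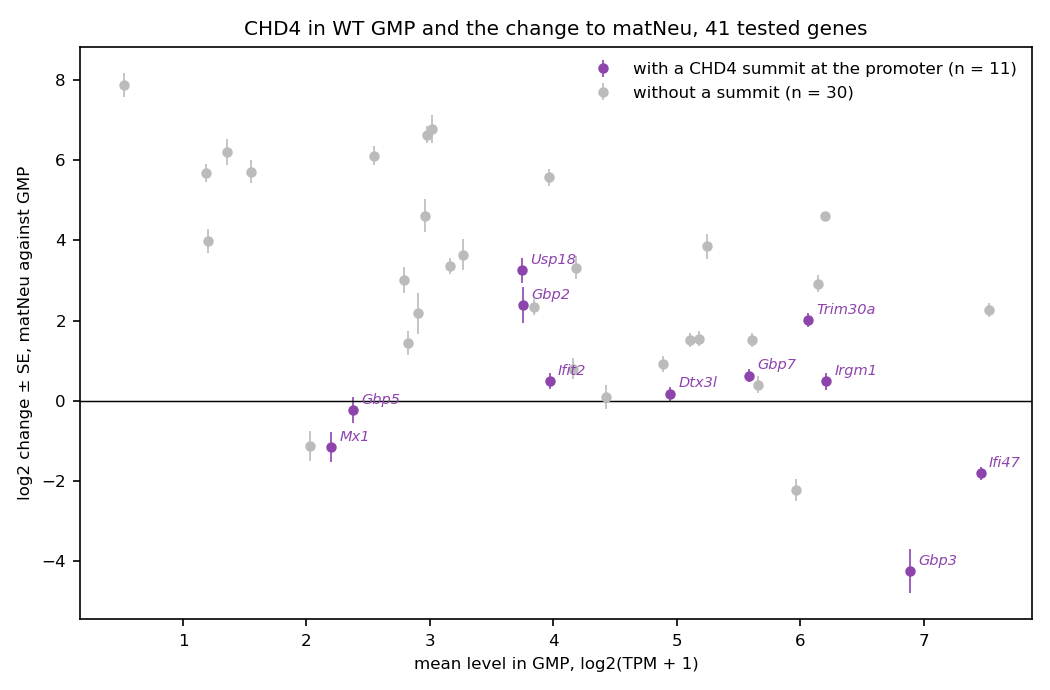
Log2 change from GMP to matNeu (vertical, ± SE) against the mean level in GMP (horizontal, log2(TPM + 1)) for the 41 tested members, with the 11 that had a CHD4 summit at the promoter in wild type GMPs in purple and named. The purple points lie from -4.25 (Gbp3) to 3.25 (Usp18), and their median of 0.49 is below the 3.17 of the grey points.

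H3K4me2 peaks lay at most of these promoters in all 3 cell types, whatever the course of the RNA. A promoter was counted as marked where a peak covered at least 1 base of it. The promoters of Igtp and Irgm2 overlapped and lay under the same peaks, as did those of Dtx3l and Parp9, so these are not separate loci. The Irgm2 stretch printed above lies at its RefSeq start, outside the promoter counted here. In GMP 36 of 42 were marked (85.7%), against 59.4% of all promoters and 86.7% of those of tested genes. In preNeu and in matNeu 38 were marked (90.5%), against 59.3% and 56.9% of all promoters and 89.4% and 88.1% of those of tested genes. The members were thus marked about as often as other genes with RNA. With the best peaks of each list down to an equal covered length, the counts were 36, 26 and 32, against 59.4%, 44.4% and 48.7% of all promoters, so the order of the cell types turned round. In all 3 cell types 34 were marked, among them Rsad2, Isg15, Ifit1, Oas3 and Samhd1, which were low in GMP or rose late. In the GMP list only 11 had a -log10 q of at least 5. The GMP peaks of Rsad2, Isg15, Ifit1 and Oas3 were not among them, with 3.23, 3.63, 2.91 and 2.705. This list was weaker than the others, with a highest fold of 7.98 against 120 in preNeu and 65.3 in matNeu, so folds were not compared between cell types.

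A change of state between marked and unmarked was seen at 6 of the 42 promoters (14.3%), against 8.90% of all promoters. Ifit3, Oas1g and Oas2 had no peak in GMP and had peaks in preNeu and matNeu. At Ifit3 the peak covered 767 bp in preNeu and 1157 bp in matNeu, and at Oas2 2894 and 4238 bp. Mx1 went the other way, with a peak of 2171 bp in GMP and none later, and Ifi44 had peaks of 172 and 488 bp in GMP and preNeu and none in matNeu. Ifitm1 had a peak in matNeu alone and Rtp4 had none. When every annotated transcript start of a gene was used, both were marked in all 3 cell types, since the first annotated start of Rtp4 lies far upstream of its other starts. The patterns of Ifit3, Oas1g, Oas2, Mx1 and Ifi44 were the same under that definition. Iigp1 was marked in no cell type.

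The marked stretches were wider in the neutrophil stages. Of the 35 members marked in both GMP and preNeu, 30 had a wider peak in preNeu (85.7%), near the 81.7% of all promoters marked in both. Of the 34 members marked in both GMP and matNeu, 28 had a wider peak in matNeu (82.4%), against 60.6% of the 11885 promoters marked in both. From preNeu to matNeu 16 of 37 had a wider peak (43.2%), against 17.3% of all. At Rsad2 the width went from 414 bp in GMP over 3179 bp in preNeu to 7071 bp in matNeu. At Isg15 it went from 588 over 8810 to 4948 bp, and at Samhd1 from 1308 over 7125 to 7643 bp. Ifitm3 and Ifitm6 shared a single peak of 30814 bp in preNeu and 30146 bp in matNeu, and had separate peaks of 1675 and 2254 bp in GMP. The median width at marked members was 2113 bp in GMP, 3423 bp in preNeu and 3426 bp in matNeu, against 1986, 2979 and 2367 bp at all marked promoters. The covered length of the whole lists also differed, with 49.8, 97.9 and 80.4 Mb, and its part in the widths was not tested.

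**Figure D5:**
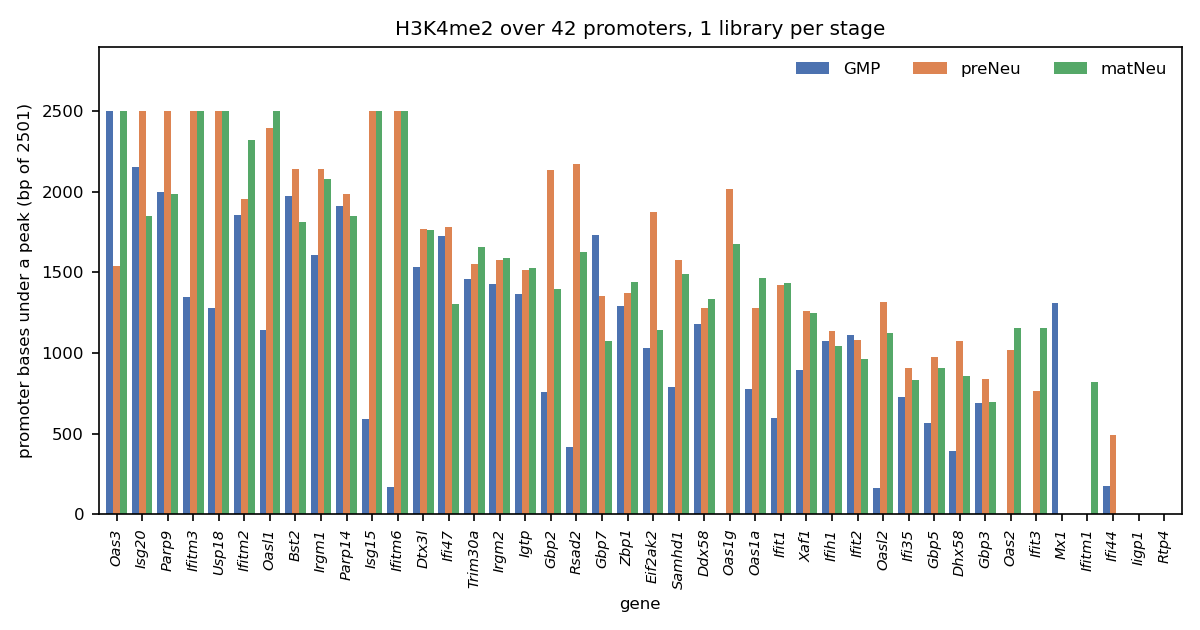
Promoter bases under an H3K4me2 peak (2000 bp before to 500 bp after each start) for the 42 members in GMP, preNeu and matNeu, 1 library each. Ifit3, Oas1g and Oas2 have no GMP bar, and Mx1 has a GMP bar alone (1311 bp).

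Open chromatin was held by 1 list of 16307 ATAC-seq peaks. The lists titled preNeu and matNeu were identical in every peak, so they were counted once and the cell type was not settled. A peak covered the promoter of 8 of 42 members (19.0%), against 35.8% of all promoters and 62.5% of those of tested genes. These 8 were Bst2, Dtx3l, Ifitm6, Irgm1, Isg20, Parp9, Samhd1 and Trim30a. Ifit1, Ifit3, Isg15, Rsad2, Rtp4 and all OAS genes had none, although their promoters other than that of Rtp4 were marked by H3K4me2 in preNeu and matNeu. With 1 list of moderate size, promoters without a peak are not shown to be closed.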

How the data were processed

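RNA-seq, CHD4 and H3K4me2 ChIP-seq and ATAC-seq of sorted mouse bone marrow cells were used. The deposited RNA values were TPM per gene made by the authors. Per the labels the tools were FastQC 0.11.5, MultiQC 1.6, Trimmomatic 0.36, BWA 0.7.17, MACS2 2.1.0 and kallisto 0.44.0 with mm10, while the extract protocol describes an alignment and read counting that yield no TPM. The deposited peak lists hold the peak caller's fold enrichment (a ratio over background) and −log10 q, called per library by the authors. Each of these peak lists was 1 library, and so had no test. Reads per library were not given, so that no counting error could be stated.

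The members and the gene lists were chosen with earlier results of these data known. A pathway gene and a marker of the original lists are not reported here, and counts leave them out. Every member was named. Values in every library were given for the members with the largest called changes, the highest means or a CHD4 summit, for fixed pathway genes and for the largest called change each way of each pathway list. limma 3.58.1 (R 4.3.3) was fitted across all genes with cell type as the only term and a variance trend, on log2(TPM + 1), for genes with at least 1 TPM in 3 of 9 libraries. P-values were adjusted by the Benjamini-Hochberg method. The script was tested on simulated data. With 3 against 3 libraries an exact permutation test of a single gene could not go below p = 0.1. Alternatives were another pseudocount, filter, scaling, block, promoter definition and q threshold, and each library left out. Promoters came from GENCODE M21 and sequences from RefSeq (GRCm38.p6). The GFI1 and H3K4me3 lists carry chromosome names of a human build and were not used.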

Additional observations from a re-analysis of the deposited data

How the results depend on the processing

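Rescaling moved all genes: the median log2 change went from -0.52, -0.92 and -0.32 (GMP to preNeu, GMP to matNeu, preNeu to matNeu) to -0.09, -0.20 and -0.07 with median-of-ratios scaling and to -0.01, 0.03 and 0.03 with quantile normalization. Genes called higher and lower went from 1925 and 5781, 2976 and 7065, and 2995 and 5202 to 3027 and 3679, 4498 and 5453, and 3944 and 4414 with the former, and to 3299 and 3559, 4991 and 4958, and 4110 and 4058 with the latter. The members' medians from GMP to matNeu were then 3.14 and 3.09, and from preNeu to matNeu 2.58 and 2.51.

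From GMP to preNeu the members called lower went from 17 to 10 with median-of-ratios scaling and 9 with quantile normalization, those called higher from 8 to 13 with the latter, and the pathway genes called higher from 6 to 14 and 15. The small fall of Samhd1 turned from -0.33 to 0.17 (limma adjusted p = 0.171) and 0.15 (adjusted p = 0.259), and its adjusted p ranged from 0.0236 to 0.259 over the alternatives. From GMP to matNeu Tbk1 turned from -0.44 to 0.44 (limma adjusted p = 0.0137) and 0.26 (adjusted p = 0.136), and its adjusted p ranged from 0.0137 to 0.136. From GMP to matNeu the 5 members called lower became 3 with no filter on low TPM, 3 with at least 5 TPM (Mx1, Gbp5 and Ifi44 were then not tested), and 3 with either scaling. From preNeu to matNeu 1 member was lower with no filter (Iigp1, not tested otherwise) and 1 without preNeu replicate 1 (Mx1). H3K4me2 in GMP went from 36 to 11 promoters at a -log10 q of at least 5, as 25.5% of all promoters did.

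Leaving out 1 library gave 7 to 9 members higher and 16 to 18 lower from GMP to preNeu, 29 to 33 and 4 to 5 from GMP to matNeu, and 33 to 36 and 0 to 1 from preNeu to matNeu. Same-numbered libraries did not deviate together (correlations -0.0394 to 0.123). With a replicate block the counts were 7 and 18, 31 and 5, and 34 and 0. Promoters of every transcript start and H3K4me2 peaks of equal covered length, both chosen after seeing the data, gave CHD4 counts of 13 and 3 and H3K4me2 counts of 38, 40 and 39, or 36, 26 and 32. The causes of these differences were not tested.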
